A study of Mus musculus with 16 samples.

Results

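The extracellular matrix genes described here are 46 genes for collagens, elastic fibre proteins, small leucine-rich proteoglycans and matrix glycoproteins, a list set by function. Of the 27670 genes on the array, 45 of the 46 had a named probe, and 39 were above background in both arrays of at least 1 group and were tested among 18993 genes. Col12a1, Col15a1, Nid2, Mfap5, Loxl3 and Vcan had probes that were above background in no group, and no probe was named for Hspg2. Of the 39 tested genes, 25 were above background on all 16 arrays and 14 on only some of them.

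The samples were 4TO7 cells, a mouse mammary tumour line, kept in medium with 10% serum. RNA of each sample, 175 ng in each labelling, was hybridised against a universal mouse reference RNA made from 11 cell lines. There were 8 groups with 2 arrays each, called repeats A and B by the labels and biological replicates by the series design. Cells overexpressing Cluster 1 miRNAs were set against cells with a pMSCV puro vector. Cells overexpressing Cluster 2 miRNAs were set against cells with a pMSCV hygro vector. Cells overexpressing Clusters 1+2 were set against cells with both empty vectors. Cells overexpressing CDH1 (E-cadherin) were set against cells with a separate pMSCV puro vector. The labels call the Cluster 1 and CDH1 cells stable, give no count of clones or infections, and do not say which miRNAs each cluster holds. Sample RNA carried Cy3 in Cluster 2, Clusters 1+2 and their controls, and Cy5 in the others, so levels are compared within these sets only. Repeats A and B of the Cy3 groups lay on slides 1 and 2, CDH1 and its control on slide 3, and Cluster 1 and its control on slide 4. If the repeats were cultures of 1 infected pool, the p-values measure only the spread between such cultures.

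Fibrillar collagens are secreted as procollagens, trimmed, and assembled into the fibres of connective tissue, where lysyl oxidases cross-link them. Basement membranes are thin sheets under epithelia, built on a network of collagen IV tied together by nidogen and perlecan. Fibulins, EMILINs and fibrillin organise elastic fibres, decorin and lumican coat collagen fibrils, and matricellular proteins such as thrombospondins and tenascin signal to cells from the matrix. The miR-200 family holds epithelial cells in their state mainly by repressing Zeb1 and Zeb2, whose proteins bind the E-box CACCTG and shut off genes such as Cdh1.

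The 5 mature miRNAs of the family are shown because the series title names miR-200 as the agent, and they fall into groups by seed, the stretch that pairs with targets. The seed, bases 2 to 8, is in capitals, and sequences and positions are from RefSeq on GRCm38.p6. The first 3 share the seed AAUACUG and the last 2 share AACACUG. miR-200b, miR-200a and miR-429 lie on the minus strand of chromosome 4, and miR-200c and miR-141 on the minus strand of chromosome 6.
mmu-miR-200b-3p: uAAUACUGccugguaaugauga
mmu-miR-200c-3p: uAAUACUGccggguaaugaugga
mmu-miR-429-3p: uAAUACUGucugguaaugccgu
mmu-miR-200a-3p: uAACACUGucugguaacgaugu
mmu-miR-141-3p: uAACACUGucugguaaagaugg

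Promoter windows were available for 31 of the 46 genes, in 41 windows, and the 250 bases before each start were searched on both strands. CACCTG, or CAGGTG on the other strand, was in 2 of the 41 windows (4.88%), those of Col8a1 and Col16a1, against 17.2% of all 32851 windows. GGGCGG, the core of a GC box, was in 27 of the 41 (65.9%), against 32.7% of all windows. The Col8a1 and Col16a1 windows are shown, 5′ to 3′ on the gene's strand with CACCTG in capitals, because these genes moved in opposite directions in Clusters 1+2 cells. They lie at chr16:57754738-57754987, minus strand, and chr4:130047590-130047839, plus strand, on GRCm38.p6. The third sequence runs from the start of Col4a2 to the start of Col4a1 on the plus strand, chr8:11312805-11312826, with GGGCGG in capitals. It lies after both starts, outside the 250 bases searched before each, which held 0 GGGCGG for Col4a1 and 2 for Col4a2. It is shown because these genes, which code for the chains of the common collagen IV, run in opposite directions from starts that lie within 22 bases of each other.
Col8a1: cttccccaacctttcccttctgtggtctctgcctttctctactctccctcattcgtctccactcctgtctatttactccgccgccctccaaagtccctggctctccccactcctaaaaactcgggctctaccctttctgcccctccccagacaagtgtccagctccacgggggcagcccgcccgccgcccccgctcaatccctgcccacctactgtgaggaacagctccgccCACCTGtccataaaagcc
Col16a1: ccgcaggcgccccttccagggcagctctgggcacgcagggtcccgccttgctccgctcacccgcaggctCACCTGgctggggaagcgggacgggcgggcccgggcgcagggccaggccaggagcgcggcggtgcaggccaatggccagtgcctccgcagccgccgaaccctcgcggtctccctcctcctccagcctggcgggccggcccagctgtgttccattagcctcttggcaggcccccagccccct
Col4a1/Col4a2: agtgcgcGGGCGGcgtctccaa

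Values below are log2 ratios of sample over reference on each array, repeat A first, and log2 fold changes between groups with their standard error (SE). A gene rose or fell if its Benjamini-Hochberg adjusted p from limma, over all genes tested, was under 0.05. Cdh1 and Zeb2 were read first as checks of the labels. Cdh1 was higher than in the matched control by 1.21 in Cluster 1, 1.93 in Cluster 2, 2.86 in Clusters 1+2 and 0.61 in CDH1 cells, where neither array of the control had it above background. Zeb2, the E-cadherin repressor, changed by -0.39, -0.77 and -2.104 in Cluster 1, Cluster 2 and Clusters 1+2 and fell in each, and its change of -0.21 in CDH1 cells did not pass the test. Of the marker lists, 4 of 5 mesenchymal and 3 of 7 epithelial markers were above background on all 16 arrays, and so were 0 of 5 endothelial, 1 of 6 leukocyte, 0 of 4 adipocyte and 1 of 4 muscle markers. Between 12560 and 28417 probes were well above background per array, and the median gap between repeats A and B ran from 0.0827 to 0.108 over all genes. Over the 39 matrix genes that gap was 0.287 in Cluster 2, 0.283 in Clusters 1+2 and 0.298 in the double vector, 3 of the 4 groups with a repeat on each of slides 1 and 2, and 0.0817 to 0.133 in the other groups.

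Much of the matrix set was far below the reference in every group. On all 16 arrays 19 of the 39 genes were more than 2-fold below it, among them Col1a1, Col1a2, Col3a1, Col5a1, Col5a2, Nid1, all 3 collagen VI chains, Lox, Dcn and Bgn. The type I collagen gene Col1a1 had a median background-subtracted signal of 498 in the samples and 29815 in the reference. No gene was above the reference on every array. The genes within 2-fold of it on every array were Col11a1, Col4a1, Col4a2, Col18a1, Col8a1 and Eln. Mgp lay on both sides of it, with sample signals from 280 to 5059. RNA of a culture does not separate fewer expressing cells from less RNA per cell.

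In Cluster 1 cells 8 of the 39 genes passed the test against the Puro vector, 7 higher and 1 lower, where 8.22% of all genes did (4.85% higher, 3.37% lower). Those that rose were Mgp, Col8a1, Thbs1, Col18a1, Col4a1, Fbln5 and Col4a2, and Col9a1 fell. In Cluster 2 cells 6 passed against the Hygro vector, 5 higher and 1 lower, with 2.75% of all genes called (1.71% higher, 1.04% lower): Thbs1, Col4a1, Col4a2, Col18a1 and Col8a1 rose and Efemp2 fell. In Clusters 1+2 cells 15 passed, 6 higher and 9 lower, with 24.8% of all genes called (12% higher, 12.8% lower). Thbs1, Fbln2, Col8a1, Col4a2, Col4a1 and Fbln5 rose, and Mgp, Col9a1, Col6a3, Emilin2, Ecm1, Col16a1, Col6a1, Efemp2 and Col5a1 fell. In CDH1 cells 13 fell and 0 rose against their Puro vector, with 14.5% of all genes called, 7.62% higher and 6.87% lower. Those were Emilin2, Mgp, Col5a3, Col5a1, Ecm1, Col6a3, Dcn, Lum, Col18a1, Fbln2, Fbln5, Col8a1 and Efemp2. The median log2 fold change of the 39 genes was 0.18 in Cluster 1, -0.13 in Cluster 2, -0.01 in Clusters 1+2 and -0.35 in CDH1 cells, where the medians over all genes lay between -0.0025 and 0.0051. These medians moved with single arrays and with the processing. Leaving out 1 array put them between -0.3537 (without repeat B of Cluster 2) and 0.0156 (without its repeat A) in Cluster 2. In Clusters 1+2 they lay between -0.2454 and 0.2121, without repeats A and B of the double vector. The Cluster 1 median was -0.0119 with the processed signals and -0.0638 with the sample channel alone, and that of CDH1 was -0.7373 with marked spots kept and stayed below 0 in every setting run. With median centring 6 genes rose and 0 fell in Cluster 2, and 2 rose and 12 fell in CDH1 cells.

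The same 4 genes rose in all 3 miRNA comparisons: Col4a1, Col4a2, Col8a1 and Thbs1. None fell in all 3, and 20 of the 39 passed in none of them, in CDH1 cells, or between the Puro controls. The shares of all genes with these patterns were not counted, so whether 4 of 39 is unusual was not tested. All 4 Cluster 2 calls ended with marked spots kept or with the spread scaled between arrays. In each of these settings 0 matrix genes passed limma's test in Cluster 2 (7 at an unadjusted p under 0.05). Second probes passed in all 3 comparisons for Col4a1 only. A replicate block for slide was also fitted, as a term for slide 2 against slide 1 in the Cy3 groups. In comparisons among Cy5 groups it left the estimates unchanged and altered only the pooled spread. It adjusts for no difference between slides 3 and 4. With the block the Cluster 2 count was 11 (6 higher, 5 lower). Fbln2 joined those that rose (0.57, adjusted p = 0.000555), and Mgp (-0.41, adjusted p = 0.02844), Emilin2 (-0.31), Col5a2 (-0.46) and Efemp1 (-0.58) joined Efemp2 among those that fell. The Cluster 2 count was between 1 and 3 when any single array of Cluster 2 or the Hygro vector was left out. The Cluster 1 count was 3 without repeat A of Cluster 1, and 5 and 4 without repeats A and B of its vector. With marked spots kept in the background step the counts were 3 in Cluster 1, 0 in Cluster 2 and 7 in CDH1 cells, with 1.02%, 0.401% and 6.65% of all genes called.

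**Figure D1:**
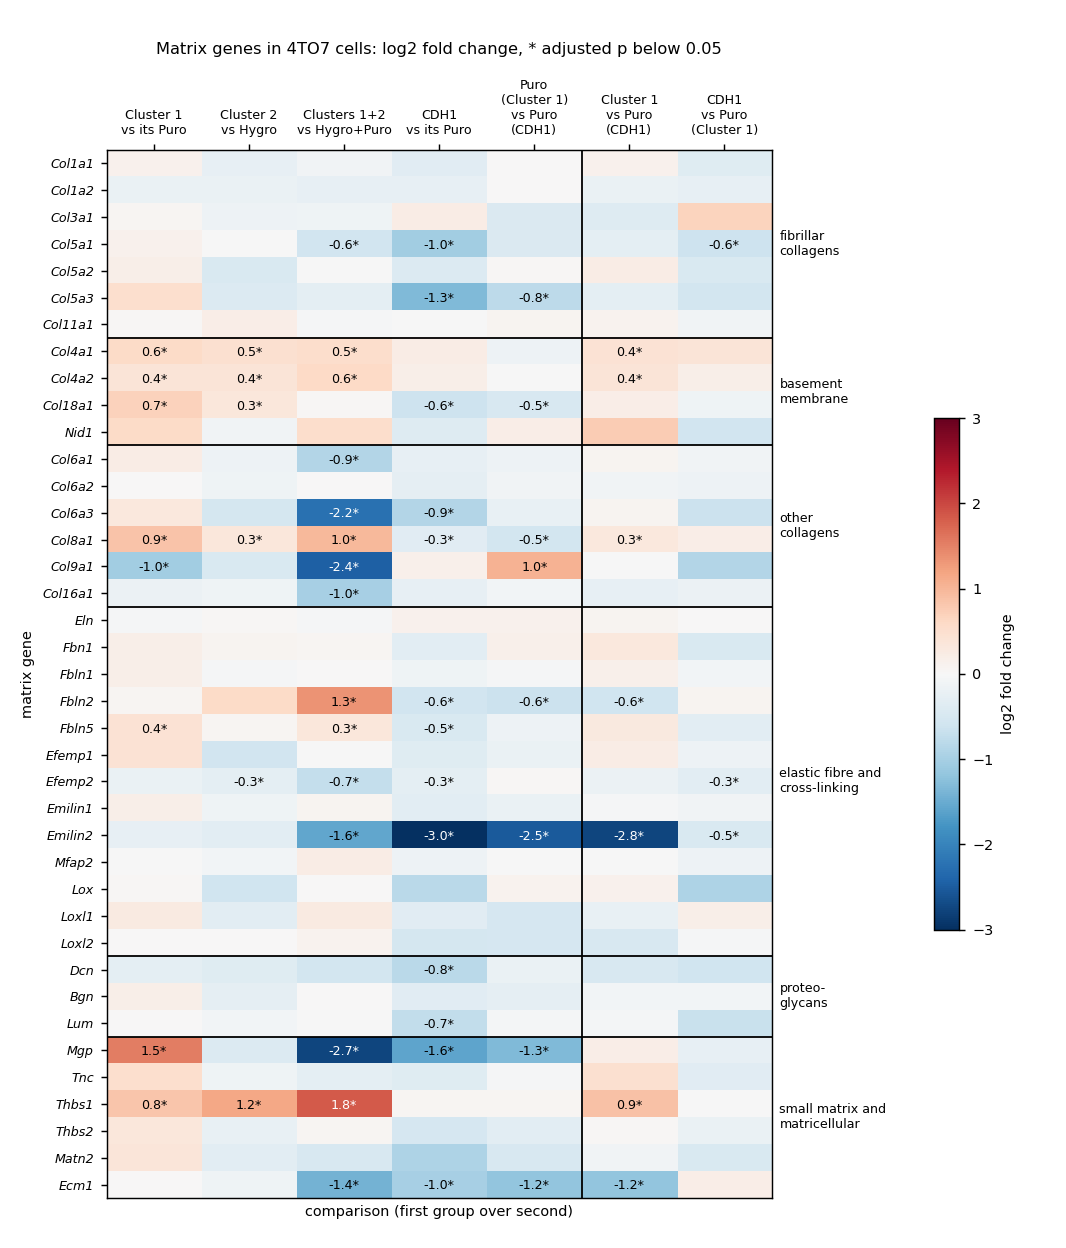
Log2 fold changes of the 39 tested matrix genes (rows, ordered by class) in 5 comparisons and, right of the vertical line, with the Puro controls exchanged; colour gives the log2 fold change of the first named group over the second, from -3 to 3, and asterisks mark an adjusted p under 0.05, with the value printed. Col4a1, Col4a2, Col8a1 and Thbs1 are higher in the first 3 columns, and the CDH1 column holds 13 marked genes, all lower.

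Of the fibrillar collagens, 7 of 7 were tested, and 0 passed limma's test in Cluster 1 or Cluster 2 (1 in each at an unadjusted p under 0.05). With the slide block Col5a3 rose in Cluster 1 and Col5a2 fell in Cluster 2. Without it 1 fell in Clusters 1+2 and 2 fell in CDH1 cells. The shares of all genes called were 8.22%, 2.75%, 24.8% and 14.5% in Cluster 1, Cluster 2, Clusters 1+2 and CDH1 cells. Col1a1, the alpha1 chain of type I collagen, had ratios of -3.96 and -3.96 in Cluster 1 cells, against -4.09 and -4.08 in their Puro vector. It had -6.61 and -5.78 in Cluster 2 cells against -6.23 and -5.66 in the Hygro vector, and -6.42 and -5.97 in Clusters 1+2 cells against -6.42 and -5.78 in the double vector. Groups overlapped in both Cy3 comparisons, where repeats on different slides lay further apart than the group means. In CDH1 cells it had -4.43 and -4.46, against -4.03 and -4.17 in the Puro vector. The change was -0.35 with a 95% interval of -0.92 to 0.22 (limma adjusted p = 0.4725, and 0.01363 with the slide block). These groups shared slide 3, so the block altered only the pooled spread. Without the block that spread includes the scatter between slides 1 and 2 of the Cy3 groups. A second, dimmer Col1a1 probe gave -0.72 in CDH1 cells (adjusted p over probes = 0.02578).

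The chains Col1a2 and Col3a1, which complete type I and make type III collagen, passed in no comparison. The Col1a2 changes lay between -0.26 and -0.19 in the 4 overexpression comparisons. In Cluster 2 the Hygro array of slide 1 had no value, and the difference within slide 2 was 0.05. Those of Col3a1 lay between -0.15 and 0.23, and its interval in Clusters 1+2 cells was -0.97 to 0.69. Col5a2, a chain of the type V collagen that starts and limits fibril growth, was at -0.46 in Cluster 2 (interval -0.82 to -0.09, limma adjusted p = 0.2155). It passed there with the slide block. In CDH1 cells Col5a2 was at -0.42. Col11a1 lay within 0.19 of no change in all 4.

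Of the type V chains, Col5a1 fell in both Clusters 1+2 and CDH1 cells. Its ratios were -3.24 and -2.89 in Clusters 1+2 cells, against -2.62 and -2.36 with both vectors (-0.58, SE 0.146, adjusted p = 0.01124). In CDH1 cells they were -2.15 and -2.26, against -1.15 and -1.17 in the Puro vector (-1.05, SE 0.146, adjusted p = 0.0004237). The arrays of the groups did not overlap in either comparison. Col5a3 fell in CDH1 cells, with -1.35 and -1.58 against -0.26 and -0.01 in the Puro vector (-1.33, SE 0.188). Second probes of Col5a1 and Col5a3, above background on 6 and 9 arrays, moved by -0.05 and -0.13 in CDH1 cells and did not pass the test.

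Among basement membrane genes 4 of 7 were tested, Col4a1, Col4a2, Col18a1 and Nid1, all above background on all 16 arrays. Of these, 3 rose in Cluster 1, 3 in Cluster 2 and 2 in Clusters 1+2, and 1 fell in CDH1 cells. Among all genes 8.22%, 2.75%, 24.8% and 14.5% were called in these comparisons, in the same order. Col4a1 had ratios of 0.03 and -0.01 in Cluster 1 cells against -0.53 and -0.62 in the Puro vector (0.58, SE 0.112, adjusted p = 0.006457). In Cluster 2 cells it had 0.02 and 0.12, against -0.39 and -0.41 in the Hygro vector (0.47, adjusted p = 0.04463). With both clusters it had 0.20 and 0.21 (Clusters 1+2 cells), against -0.50 and -0.17 with both vectors (0.54, adjusted p = 0.003232). All 3 pairs of groups stood apart, with fold changes of 1.496, 1.385 and 1.452. A second Col4a1 probe gave 0.64, 0.51 and 0.59, each past the test over probes.

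Col4a2 rose by 0.39 in Cluster 1, with -0.37 and -0.41 against -0.84 and -0.72 in the Puro vector. It rose by 0.39 in Cluster 2, with 0.21 and 0.21 against -0.15 and -0.22 in the Hygro vector, and by 0.61 in Clusters 1+2, with 0.60 and 0.43 against -0.17 and -0.01 with both vectors. The SE was 0.0801 in each. Its second, dimmer probe moved by 0.09, 0.23 and 0.53 and passed the test over probes in Clusters 1+2 (adjusted p = 0.02193), not in the others. In CDH1 cells Col4a1 and Col4a2 changed by 0.23 and 0.17, and neither passed (adjusted p = 0.2136 and 0.2033).

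Col18a1, the collagen of vascular and epithelial basement membranes that carries endostatin, had 0.45 and 0.32 in Cluster 1 cells against -0.35 and -0.27 in the Puro vector (0.69, adjusted p = 9.951e-05; 0.20 and not called against the other Puro vector). It rose by 0.35 in Cluster 2 and stood at 0.05 in Clusters 1+2, where its ratios of -0.04 and -0.09 overlapped -0.06 and -0.16 with both vectors. In CDH1 cells it fell to -0.39 and -0.51, against 0.20 and 0.16 in the Puro vector (-0.62, adjusted p = 0.0001154). Nid1, which links laminin to collagen IV, passed in no comparison, with changes of 0.57, -0.09, 0.52 and -0.38. Its 95% interval in Cluster 1 cells was -0.08 to 1.21.

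Laminin chains outside laminin-332, the other network of basement membranes, were listed beside these genes. Of 7 tested, 1 rose and 1 fell in Cluster 1, and 0 passed limma's test in Cluster 2 (2 at an unadjusted p under 0.05). In Clusters 1+2 cells 3 fell, and in CDH1 cells 2 fell. Of all genes 8.22%, 2.75%, 24.8% and 14.5% were called in these comparisons, in the same order. Lama4, the laminin alpha4 chain, rose by 0.68 in Cluster 1 cells. In Clusters 1+2 cells it fell to -0.23 and -0.20, against 1.41 and 1.17 with both vectors. It was not well above background there, which gives a fall of at least 2.27-fold. Lamc1, the common gamma chain, fell by 0.28 in Clusters 1+2 and by 0.58 in CDH1 cells.

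Of the other collagens, 6 of 7 were tested. In Clusters 1+2 cells 1 of them rose and 4 fell, with 24.8% of all genes called, and their median was -0.93. Col6a3, the largest chain of the microfibrillar collagen VI, had -4.13 and -3.73 in Clusters 1+2 cells, against -1.72 and -1.65 with both vectors. That is a fall of 2.25 (SE 0.164, adjusted p = 6.281e-07), or 4.74-fold, and the values within slides 1 and 2 were -2.41 and -2.08. In Cluster 2 cells it was at -2.48 and -2.44 against -1.9995 and -1.8639 in the Hygro vector (-0.53, adjusted p = 0.1324). In CDH1 cells it fell by 0.89, with -2.55 and -2.70 against -1.53 and -1.96 in the Puro vector. Col6a1 fell by 0.87 in Clusters 1+2 cells and passed in no other overexpression comparison. Col6a2, above background on 13 of 16 arrays, moved by 0.02 there (interval -0.21 to 0.24).

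Col16a1, a fibril-associated collagen, had -1.20 and -1.11 in Clusters 1+2 cells and -0.24 and -0.09 with both vectors (-0.99, SE 0.0803). It moved by -0.16, -0.12 and -0.24 in Cluster 1, Cluster 2 and CDH1 cells, none past the test. Col9a1, a cartilage collagen, was dim, with a median sample signal of 84. It had -0.0060 and -1.0006 in Clusters 1+2 cells, not well above background on either array, against 1.75 and 2.13 with both vectors, a fall of at least 4.14-fold. In Cluster 1 cells it had 0.33 and 0.12, against 1.12 and 1.41 in the Puro vector (-1.04, adjusted p = 0.02449).

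Col8a1, a short-chain collagen that forms hexagonal networks, rose in each miRNA comparison. Its ratios were 0.26 and 0.18 in Cluster 1 cells, against -0.62 and -0.65 in the Puro vector (0.85, SE 0.0645, adjusted p = 7.356e-06). They were 0.01 and 0.10 in Cluster 2 cells, against -0.28 and -0.26 in the Hygro vector (0.33, adjusted p = 0.01457). The Clusters 1+2 cells had 0.65 and 0.66, against -0.29 and -0.36 with both vectors (0.98, adjusted p = 2.609e-07), a 1.97-fold rise. In CDH1 cells the gene fell by 0.34, with -0.41 and -0.45 against -0.06 and -0.12 in the Puro vector. The second probe, above background on 12 arrays, gave 0.88 in Clusters 1+2 cells and 0.00 in Cluster 1 cells.

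**Figure D2:**
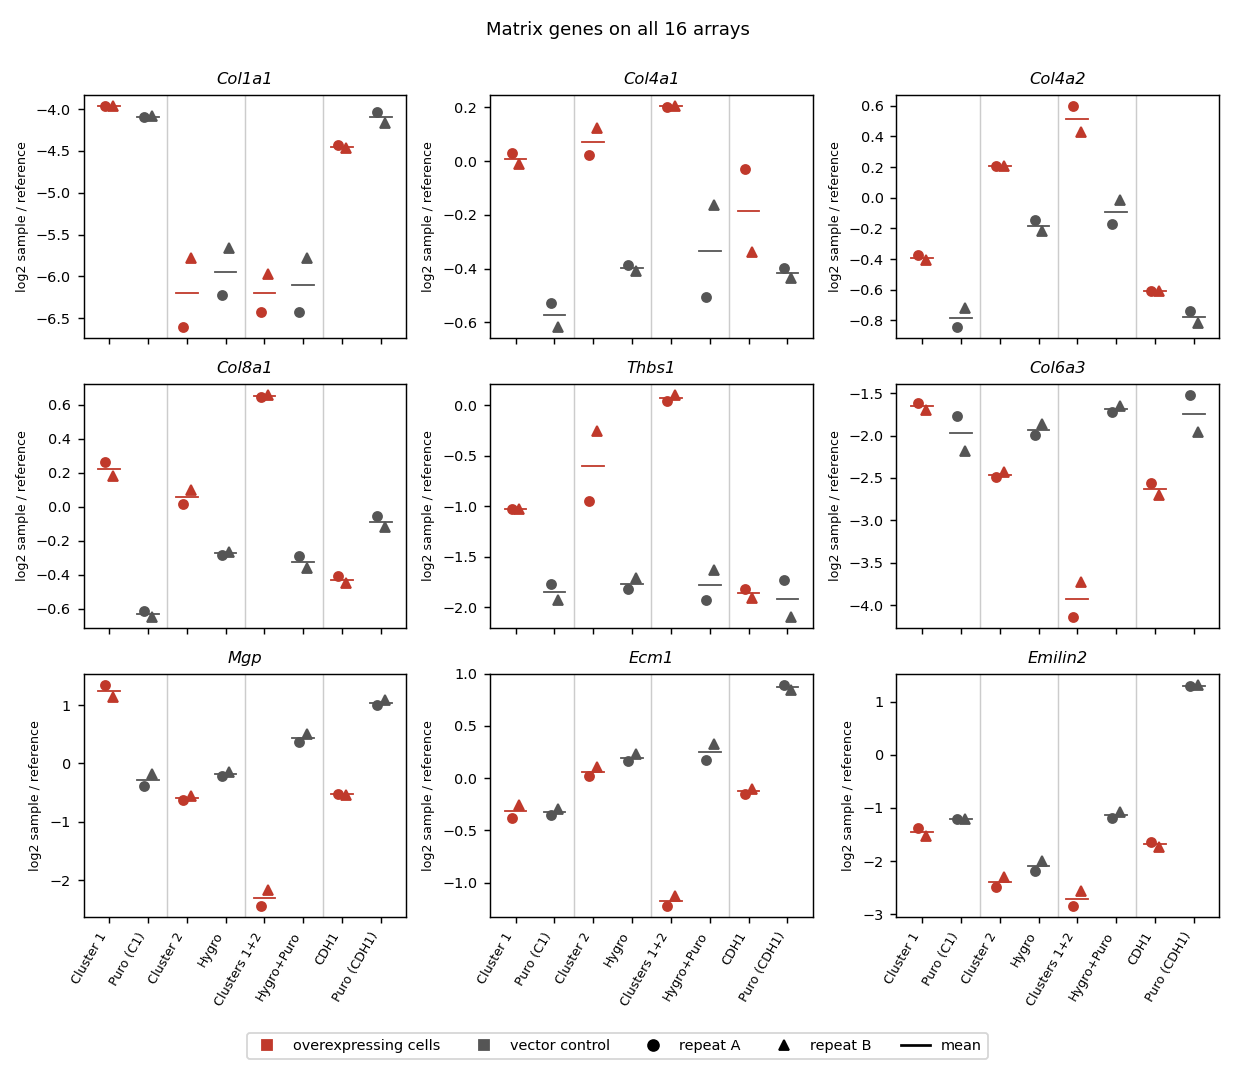
Log2 ratio of sample over reference for 9 matrix genes on all 16 arrays; circles are repeat A, triangles repeat B, bars the mean of a group, red the overexpressing cells and grey the vector control to their right. Levels of Cluster 2, Clusters 1+2 and their controls (Cy3) cannot be set against those of the other groups (Cy5); Emilin2 and Ecm1 are high in the Puro vector for CDH1, and Thbs1 and Col8a1 are highest in Clusters 1+2 among the Cy3 groups.

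Of 15 elastic fibre and cross-linking genes 13 were tested. In Clusters 1+2 cells 2 rose and 2 fell, in CDH1 cells 4 fell, and 1 passed in each of Cluster 1 (Fbln5, higher) and Cluster 2 (Efemp2, lower). The shares of all genes called were 24.8%, 14.5%, 8.22% and 2.75%, in the same order. Emilin2, an elastin microfibril interface protein, had -2.85 and -2.56 in Clusters 1+2 cells against -1.19 and -1.08 with both vectors (-1.57, adjusted p = 2.872e-07). In CDH1 cells it had -1.64 and -1.73, against 1.28 and 1.32 in the Puro vector. That is a fall of 2.98 (SE 0.105, adjusted p = 1.029e-08), or 7.895-fold. A second probe moved by -0.80 and -1.86 in these comparisons, both past the test.

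Efemp2, or fibulin-4, which recruits lysyl oxidase to elastin, fell by 0.30 in Cluster 2, 0.71 in Clusters 1+2 (1 array without a value) and 0.30 in CDH1 cells. Its change of -0.20 in Cluster 1 cells did not pass (adjusted p = 0.1236). Fbln2, a fibulin of basement membranes and elastic fibres, rose to -2.56 and -2.36 in Clusters 1+2 cells, against -3.95 and -3.65 with both vectors (1.34, SE 0.142, adjusted p = 1.672e-05). It fell by 0.57 in CDH1 cells, with -2.97 and -3.02 against -2.40 and -2.44 in the Puro vector. Fbln5, needed for elastic fibre assembly, rose by 0.42 in Cluster 1 and 0.34 in Clusters 1+2 and fell by 0.47 in CDH1 cells. The lysyl oxidases that were tested, Lox, Loxl1 and Loxl2, passed in no comparison without the slide block. With it Loxl2 fell in CDH1 cells (-0.53, limma adjusted p = 0.01818). Loxl1 and Loxl2 were then lower in the Puro vector for Cluster 1 than in that for CDH1 (-0.50 each, adjusted p = 0.02355 and 0.0334). These controls lay on slides 4 and 3, between which the block does not adjust. Lox had -2.41 and -2.65 in CDH1 cells against -1.54 and -1.88 in the Puro vector (-0.82, interval -1.53 to -0.11, adjusted p = 0.1284). Fbn1, the fibrillin of microfibrils, was above background on 3 of 16 arrays, and its changes lay between -0.32 and 0.18. Eln (elastin), Fbln1, Efemp1, Emilin1 and Mfap2 did not pass without the block either, with changes between -0.58 and 0.44. With the block Efemp1 fell in Cluster 2 cells (-0.58) and Mfap2 rose in Clusters 1+2 cells (0.22, limma adjusted p = 0.04155).

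Of the proteoglycans 3 of 4 were tested, and 0 passed limma's test in the 3 miRNA comparisons (1, Dcn in Clusters 1+2, at an unadjusted p under 0.05). In CDH1 cells 2 fell. Of all genes 14.5% were called there, and 8.22%, 2.75% and 24.8% in Cluster 1, Cluster 2 and Clusters 1+2. Dcn (decorin) had -2.98 and -3.22 in CDH1 cells against -2.36 and -2.23 in the Puro vector (-0.80, SE 0.216, adjusted p = 0.02491). It was at -5.05 and -4.50 in Clusters 1+2 cells, against -4.47 and -3.98 with both vectors. There the change of -0.55 did not pass (adjusted p = 0.08808) but had an adjusted p of 0.004522 with the slide block. Lum (lumican) had -0.92 and -1.39 in CDH1 cells and -0.59 and -0.24 in the Puro vector (-0.74, adjusted p = 0.01499), and its changes lay between -0.07 and 0.01 in the miRNA comparisons. Bgn (biglycan) moved by -0.35 in CDH1 cells and did not pass.

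All 6 small matrix and matricellular genes were tested. Thbs1, thrombospondin-1, an inhibitor of vessel growth that activates latent TGF-beta, rose in each miRNA comparison. Its ratios were -1.03 and -1.02 in Cluster 1 cells against -1.77 and -1.92 in the Puro vector (0.82, SE 0.182, adjusted p = 0.0145). In Cluster 2 cells they were -0.95 and -0.25, against -1.82 and -1.71 in the Hygro vector (1.17, adjusted p = 0.003307), so that the Cluster 2 repeats lay further apart than those of its control. The Clusters 1+2 cells had 0.04 and 0.10, against -1.92 and -1.63 with both vectors (1.85, adjusted p = 9.248e-06), a 3.60-fold rise. In CDH1 cells the change was 0.05, with an interval of -0.34 to 0.45. The second Thbs1 probe, above background on 11 arrays, moved by 0.22, -0.29 and 0.54 and passed in none.

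Mgp, matrix Gla protein, an inhibitor of calcification, moved in opposite directions against the matched controls. It had 1.35 and 1.13 in Cluster 1 cells, against -0.39 and -0.18 in the Puro vector (1.53, SE 0.107, adjusted p = 4.19e-06). In Cluster 2 cells it had -0.62 and -0.55, against -0.21 and -0.15 in the Hygro vector (-0.41, adjusted p = 0.06733). In Clusters 1+2 cells it had -2.45 and -2.16, against 0.37 and 0.51 with both vectors. That fitted fall of 2.75 (adjusted p = 3.517e-09), or 6.72-fold, was the largest of the 39 genes there, with -2.82 and -2.68 within slides 1 and 2. In CDH1 cells Mgp had -0.52 and -0.54, against 1.00 and 1.09 in the Puro vector (-1.57, limma adjusted p = 1.905e-06). Against the other Puro vector Mgp was at 0.20 in Cluster 1 cells and -0.24 in CDH1 cells, and neither passed.

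Ecm1, a secreted glycoprotein of skin and vessel matrix, fell to -1.23 and -1.13 in Clusters 1+2 cells, against 0.18 and 0.32 with both vectors (-1.43, SE 0.0762, adjusted p = 3.995e-08). In CDH1 cells it had -0.15 and -0.10, against 0.89 and 0.85 in the Puro vector (-0.9982, adjusted p = 4.035e-06). Its changes of 0.01 and -0.13 in Cluster 1 and Cluster 2 cells did not pass. A dimmer Ecm1 probe moved by -0.42 in Clusters 1+2 cells, past the test, and by -0.16 in CDH1 cells, not past it. Tnc (tenascin-C), Thbs2 and Matn2 (matrilin-2) passed in no overexpression comparison. Matn2 was at -0.92 in CDH1 cells (adjusted p = 0.0563; 0.004101 with the slide block). Tnc had -0.24 and -0.39 in Cluster 1 cells against -0.77 and -0.86 in the Puro vector (0.50, adjusted p = 0.1087; 0.04119 with the slide block).

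**Figure D3:**
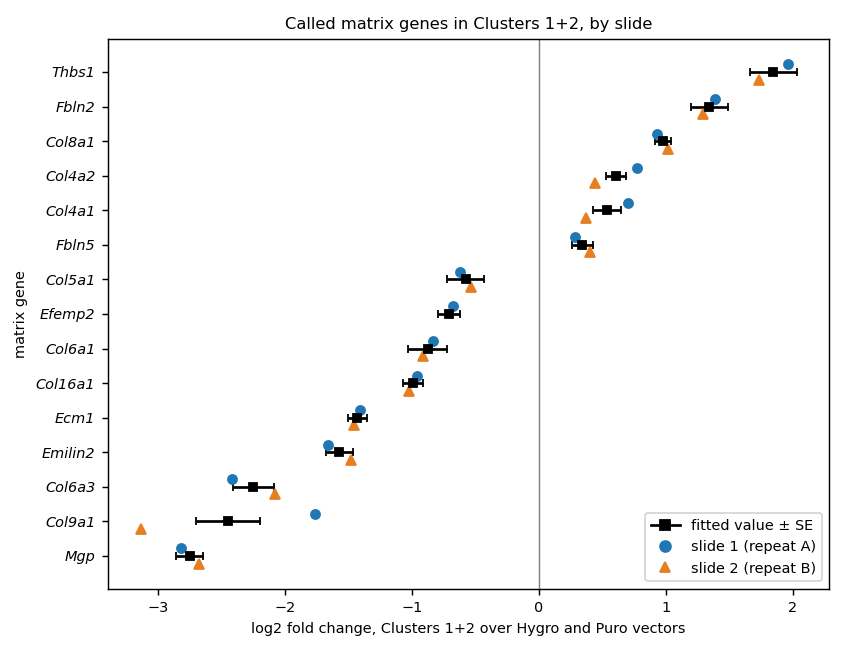
Log2 fold change of Clusters 1+2 over the double-vector control for the 15 matrix genes that passed the test; black squares with bars are the fitted value ± SE, blue circles the value within slide 1 and orange triangles that within slide 2 (none for Efemp2, whose spot was marked). All values within a slide have the sign of the fitted value; Col9a1, not well above background in Clusters 1+2, differs most between slides, at -1.76 and -3.13.

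The effects of Clusters 1+2 were then compared with those of each cluster alone. Against the Cluster 2 effect 8 of the 39 genes differed, 2 higher and 6 lower, with 6.22% of all genes called (2.91% higher, 3.32% lower). The split was 0 higher and 10 lower with median centring, and 0 and 2 with scaled spread. The differences were above 0 for Col8a1 (0.65) and Fbln2 (0.78), and Mgp (-2.34, SE 0.151), Col9a1, Col6a3 (-1.72), Ecm1 (-1.29), Emilin2 (-1.26) and Col16a1 (-0.87) were below 0. The difference for Thbs1 was 0.68 and did not pass (adjusted p = 0.1563), and those for Col4a1 and Col4a2 were 0.07 and 0.22. Against the Cluster 1 effect 13 differed, 2 higher (Fbln2, 1.30, and Thbs1, 1.03) and 11 lower, with 15.6% of all genes called (7.18% higher, 8.41% lower). This contrast spans both dyes, and scaled spread left 0 higher and 4 lower. Mgp had a difference of -4.28 (SE 0.151), Col6a3 one of -2.56 and Ecm1 one of -1.43. No size is given for Col9a1, called lower in both contrasts, since it was not well above background on either Clusters 1+2 array. Emilin2 differed by -1.33, Col6a1 by -1.10, Col16a1 by -0.83, Tnc by -0.79, Col5a1 by -0.70, Col18a1 by -0.65 and Efemp2 by -0.51.

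The Cluster 1 effect and the CDH1 effect, both in Cy5 and each within a slide, differed for 11 genes, 10 higher in Cluster 1 and 1 lower, with 17% of all genes called (8.85% higher, 8.17% lower). Mgp differed by 3.1015 (SE 0.151), Emilin2 by 2.75, Col5a3 by 1.83, Col18a1 by 1.32 and Col6a3 and Col8a1 by 1.20 each. Col5a1 (1.17), Ecm1 (1.0046), Fbln5 (0.89) and Tnc (0.86) were also higher, and Col9a1 was lower (-1.20). The overexpressing cells' own ratios lay closer for some of these genes. Emilin2 had -1.38 and -1.52 in Cluster 1 cells and -1.64 and -1.73 in CDH1 cells. Ecm1 had -0.38 and -0.26 in Cluster 1 cells and -0.15 and -0.10 in CDH1 cells. The Ecm1 ratios were thus lower in Cluster 1 cells than in CDH1 cells, although its difference between the effects was above 0. Cluster 1 and CDH1 cells lay on slides 4 and 3, so slide and cell line cannot be told apart in these ratios. The gaps between the ratios were not tested. Mgp had 1.35 and 1.13 in Cluster 1 cells and -0.52 and -0.54 in CDH1 cells. With the slide block, which altered only the pooled spread here, the count was 22, of which 21 were higher. Col1a1 (0.48, limma adjusted p = 0.01378), Thbs1 (0.77) and Matn2 were among the added genes. No size is given for Matn2, which was not well above background on either Cluster 1 array.

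The Puro vector cells for Cluster 1 and those for CDH1 carry the same vector by the labels, yet 8 of the 39 genes differed between them, 1 higher and 7 lower in the cells for Cluster 1, with 10% of all genes called (4.85% higher, 5.18% lower). The count was 5 without repeat B of either control. Emilin2 had -1.22 and -1.22 in the Puro vector for Cluster 1, against 1.28 and 1.32 in that for CDH1, a difference of -2.52 (SE 0.105, adjusted p = 6.074e-08), or 5.72-fold. Mgp had -0.39 and -0.18 in the Puro vector for Cluster 1 against 1.00 and 1.09 in that for CDH1 (-1.33). Ecm1 had -0.35 and -0.29 in the Puro vector for Cluster 1 against 0.89 and 0.85 in that for CDH1 (-1.20). Col5a3 (-0.79), Fbln2 (-0.65), Col8a1 (-0.54) and Col18a1 (-0.49) were also lower, and Col9a1 was higher (1.04), with only 1 of the 2 CDH1 control arrays above background. The controls lay on different slides, each with its own overexpressing cells (slide 4 for Cluster 1, slide 3 for CDH1). Slide and control cell line therefore cannot be told apart. Of 5 endothelial markers 3 (Cdh5, Kdr and Emcn) also had lower ratios in the Puro vector for Cluster 1, with differences of -0.75, -0.53 and -0.60, though they were above background on both of its arrays and on neither array of the Puro vector for CDH1. Of 5 mesenchymal markers 2 (Fn1 and Zeb2) were lower, with -0.91 and -0.36. The part of these in the matrix result was not tested.

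Of the 13 genes that fell in CDH1 cells, 7 were also lower in the Puro vector for Cluster 1 than in that for CDH1. Both comparisons use the same arrays of the Puro vector for CDH1, so a gene high on those arrays tends to be lower in both. The matching overlap over all genes was not counted. Values against the exchanged control share samples with those above and are given beside them. They span slides 3 and 4, so slide and cell line cannot be told apart in them. In CDH1 cells against the Puro vector for Cluster 1, 3 of the 39 genes fell, Col5a1 (-0.62), Emilin2 (-0.47, adjusted p = 0.03669) and Efemp2 (-0.33), with 2.41% of all genes called (1.26% higher, 1.15% lower). There Mgp was at -0.24, Fbln2 at 0.07, and Ecm1 and Col8a1 at 0.20 each, none past the test. Col18a1 was at -0.14 there and Col5a3 at -0.54, beside -0.62 and -1.33 against the own vector, and neither call held (adjusted p = 0.4522 and 0.1897). Dcn was at -0.60, Lum at -0.67 and Col6a3 at -0.65, beside -0.80, -0.74 and -0.89 against the own vector, with adjusted p of 0.2011, 0.08318 and 0.06079.

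Cluster 1 cells against the Puro vector for CDH1 gave 7 genes, 4 higher and 3 lower, with 8.58% of all genes called (4.76% higher, 3.82% lower). The 4 that rose were Thbs1 (0.89), Col4a1 (0.43), Col4a2 (0.39) and Col8a1 (0.31), the same as those that rose in all 3 miRNA comparisons. Emilin2 (-2.75), Ecm1 (-1.19) and Fbln2 (-0.60) were lower, though they had moved by -0.24, 0.01 and 0.05 against the own vector. Mgp was at 0.20 (interval -0.03 to 0.43, adjusted p = 0.3521), beside 1.53 with the own vector. Col18a1 was at 0.20 (adjusted p = 0.1187), beside 0.69, and Fbln5 at 0.28 (adjusted p = 0.0612), beside 0.42. Col9a1 was at -0.01, beside -1.04.

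**Figure D4:**
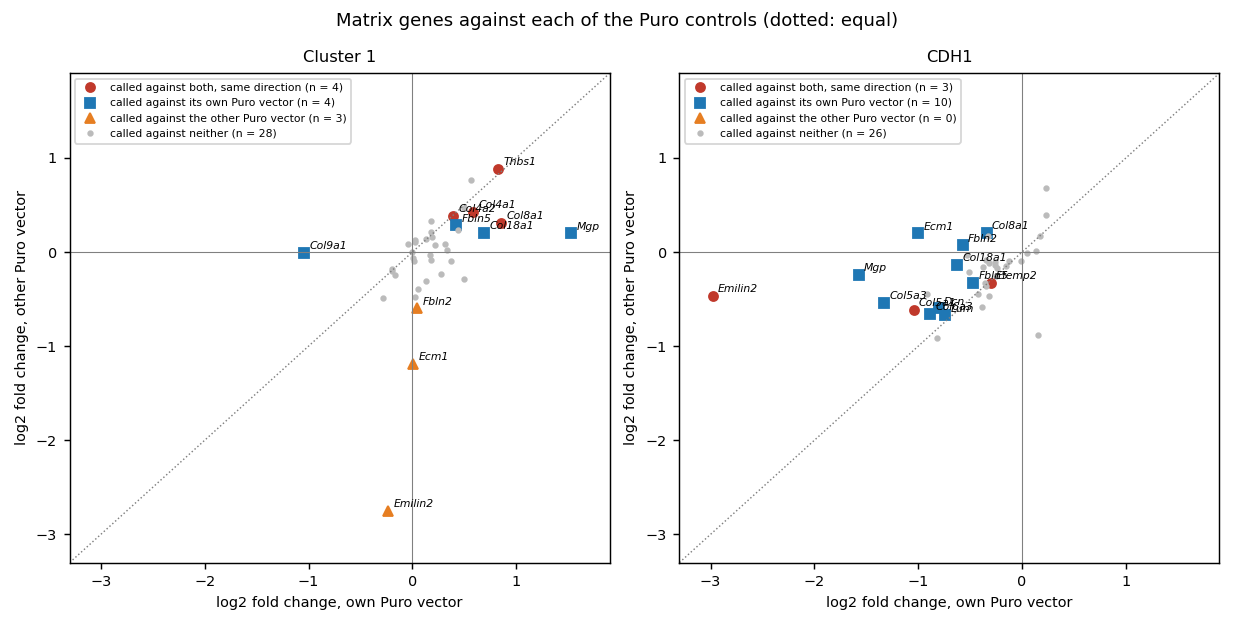
Log2 fold change of the 39 matrix genes in Cluster 1 cells (left) and CDH1 cells (right) against their own Puro vector (x axis) and against the other Puro vector (y axis); the dotted line marks equal values, and the axes share samples. Red circles passed against both in the same direction (4 in Cluster 1, 3 in CDH1), blue squares against the own vector, orange triangles against the other, and grey points against neither; Mgp, Ecm1 and Emilin2 lie far from the line.

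Genes that modify, fold and trim collagen were examined beside the collagens. Of 19 tested, 1 rose and 2 fell in Cluster 1, and 0 passed limma's test in Cluster 2 (5 at an unadjusted p under 0.05). In Clusters 1+2 cells 1 rose and 6 fell, and in CDH1 cells 2 rose and 6 fell. Of all genes 8.22%, 2.75%, 24.8% and 14.5% were called in these comparisons, in the same order. Serpinh1, the collagen chaperone HSP47, had -1.25 and -1.11 in Clusters 1+2 cells, against -0.48 and -0.37 with both vectors (-0.75, adjusted p = 0.0001674). In CDH1 cells it had -0.94 and -0.91, against 0.53 and 0.30 in the Puro vector (-1.34, adjusted p = 4.82e-06), and it was lower by 0.83 in the Puro vector for Cluster 1 than in that for CDH1. Crtap, which takes part in prolyl 3-hydroxylation, fell by 0.39 in Cluster 1 and 1.06 in Clusters 1+2 (1 control array without a value). Pcolce, the enhancer of procollagen C-proteinase, fell by 0.93 in Clusters 1+2 and 0.77 in CDH1 cells, and was lower by 0.95 between the Puro controls. Pcolce2 rose by 0.46 in Clusters 1+2 and 0.48 in CDH1 cells, Plod2 rose by 0.28 in CDH1 cells, and P4ha2, a prolyl 4-hydroxylase subunit, rose by 0.46 in Cluster 1.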

How the data were processed

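The scanner files deposited by the authors give, for every spot and both channels, the mean intensity and the median intensity of the local surround, read with Agilent's Feature Extraction (9.5.3.1, array design 014868) per the file headers. The authors also deposited processed intensity values and, in the series matrix, 1 ratio per spot, which matched processed sample over reference with a largest log10 difference of 8.06e-08 (column medians 0.9032 to 1.175). The deposited log10 ratio of red over green was not used.

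Spots marked by the software as uneven or outlying were set missing (264 to 1493 per array), a choice taken over from earlier work after results were seen. Normexp with offset 50 corrected the background (R 4.3.3 with limma 3.58.1), each array was normalised by loess with controls at weight 0, and log2 sample over reference was averaged per probe. A probe was kept if its sample channel was well above background on each array of some group (27090 of 41174), and the brightest stood for its gene. Probes were named by accession (22951), symbol (6659), synonym (3109) or the file's own name (8455). One limma fit (lmFit, eBayes) took 8 group means over 16 arrays, with Benjamini-Hochberg adjustment over all genes. The fit was also run on simulated data with independent errors and no slide effect, which cannot check how it handles shared slides. A bound (at least N-fold) replaces the fold where a group was not well above background on either array: the dim group stands at the higher of its own signal and the lowest signal well above background. The number of arrays limits the precision. Probe positions follow build mm7 per the file headers.

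Deviations of slides 1 and 2 correlated at 0.243 to 0.429 over the 6 pairs of Cy3 groups, so slides pair those repeats; over the Cy5 pairs repeats A and B gave -0.0141 to 0.0725. Members and lists were chosen with earlier results of these data known. All 39 tested members are accounted for; those described singly are the called ones (up to 8 in each direction per comparison) and Col1a1, Col1a2, Col3a1, Col5a2, Col4a1, Col4a2, Col6a1, Col9a1, Mgp, Lum, Dcn, Lox, Thbs1 and Tnc, with up to 3 per direction of 2 neighbouring lists. Other names (second probes, dim genes, markers) were added after their values were seen.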

Additional observations from a re-analysis of the deposited data

How the results depend on the processing

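The counts of matrix genes called were recomputed under other settings. With marked spots kept in the background fit they were 3 in Cluster 1, 0 in Cluster 2 (limma; 7 at an unadjusted p under 0.05), 7 in CDH1, 4 between the Puro controls, 4 and 5 for the Clusters 1+2 effect against those of Cluster 2 and Cluster 1, and 6 for Cluster 1 against CDH1. The Cluster 2 count was 2 with offset 10, 1 with the processed signals, 0 with scaled spread (limma; 7 at an unadjusted p under 0.05) and 1 with the sample channel alone. The sample channel alone gave 18 lower between the Puro controls, and 5 and 6 for the Clusters 1+2 differences, which scaling of the spread put at 2 and 4. Slide as a replicate block, a term for slides 1 and 2 only, gave 11 in Cluster 2 and 22 for Cluster 1 against CDH1. It ended no call and, besides the genes named in the report, added Col5a3 in Cluster 1, Mfap2 in Clusters 1+2, Col16a1, Loxl2 and Matn2 in CDH1 cells and Col5a1, Loxl1 and Loxl2 between the Puro controls. The exchanged control left 3 in CDH1 cells, with Col8a1 at 0.2021, Fbln2 at 0.0723 and Ecm1 at 0.1970. Leaving out 1 array gave 3 to 6 in Cluster 1, 1 to 3 in Cluster 2, 13 to 16 in Clusters 1+2, 9 to 11 in CDH1, 5 to 6 between the Puro controls, 7 to 9 and 9 to 13 for the Clusters 1+2 differences and 9 to 15 for Cluster 1 against CDH1. Median centring moved the median of all genes by 0.135 in Cluster 2 and 0.1047 in CDH1, left 6 calls in Cluster 2, all higher, gave 2 higher and 12 lower in CDH1 cells and 0 higher and 10 lower for Clusters 1+2 against Cluster 2, and put Efemp2 there at 0.0226. With the sample channel alone Col1a2 between the Puro controls was -0.6067 and Col9a1, Clusters 1+2 against Cluster 1, 0.0583. No other total of called genes moved by over 1.5 times, also among the 25 genes above background on all 16 arrays, a restriction chosen after seeing the data. Single calls ended in 254 of the recomputed values and 6 turned direction. The cause of these shifts was not tested.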
